A study of Mus musculus with 24 samples.

Results

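The genes described here are the Hox genes of the HoxA, HoxB, HoxC and HoxD clusters, followed through the upper and lower jaws of mouse embryos with and without a mutation of Alk5. They were chosen by symbol alone, as Hoxa, Hoxb, Hoxc or Hoxd followed only by digits, and each gene was read from its brightest probe set, by the mean of the 24 arrays. This gave 33 genes out of 18193 in the table, of the 39 mouse Hox genes in a RefSeq gene table. The remaining genes were not analysed here as members. The 33 comprised 9 HoxA, 9 HoxB, 7 HoxC and 8 HoxD genes.

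The mutant embryos came from crosses of Wnt1-Cre;Alk5 fl/+ with Alk5 fl/fl mice, and were told from their littermates by a cleft palate together with a malformed skull vault. Controls were littermates, whose own combination of Cre and floxed alleles is not given. All embryos were on a C57B6 background at embryonic day 14.5. Each jaw was divided into a distal end, towards the chin or snout, and a proximal end, towards the jaw joint, with the tissue compartment labelled as bone. The 8 groups were mutant and control distal mandible, proximal mandible, distal maxilla and proximal maxilla, with 3 arrays each. Wnt1-Cre recombines in cells of the neural crest lineage, so that skeletal muscle, endothelial, blood and epithelial cells of the mutants keep Alk5. The gene symbol of Alk5, a type I TGF-beta receptor, is Tgfbr1.

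Hox genes encode homeodomain transcription factors that give cells their identity along the body axis, and they lie in each cluster in the order in which they act from head to tail. Neural crest cells that fill the first pharyngeal arch, the source of both jaws, are known for carrying no Hox expression, whereas crest of the second and later arches does. Forced Hoxa2 in first arch crest disturbs the jaw skeleton, and loss of Hoxa2 turns second arch elements into first arch ones. Hoxd1, a member of the most anterior paralogue group, is known in the mouse for its part in pain-sensing neurons.

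Signals are log2 values, so that a difference of 1 is a doubling of the signal. They allow 1 gene to be compared between arrays and not 1 gene with another, since each probe set has its own brightness. A mean of 6.4 over the 24 arrays marks the upper edge of what is called near background here. It lies at about the 40th percentile of each array, which ran between 6.33 and 6.47, and the table carried no detection calls. Array medians were between 7.03 and 7.12. Groups were compared with limma on all 24 arrays, a gene was tested if it lay above the 40th percentile in at least 3 arrays, and a gene at a Benjamini-Hochberg adjusted p under 0.05 over the 13942 tested genes was called. Errors on differences are standard errors of that model, and errors on levels are SD with n = 3 arrays. The labels do not say whether a group's arrays stem from different embryos. The p-values therefore cover just the spread among these arrays, whose number limits the precision.

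Levels of Hand2 followed the labelled jaw. Hand2, a transcription factor of the mandible, averaged 12.46 in the control distal mandible against 5.52 in the control distal maxilla, and 9.68 in the control proximal mandible against 7.04 in the control proximal maxilla. The mean level of 5 mandible markers was 9.96 to 10.06 in the control distal mandible against 8.14 to 8.21 in the control distal maxilla. That of 5 maxilla and palate markers did not part the jaws, at 9.19 to 9.43 against 8.71 to 9.46 in the same groups. The mutant maxilla arrays numbered 3 stood apart. The proximal one had a mean correlation over all probe sets of 0.9913 with the mutant proximal mandible arrays and 0.9882 with its own group, and the distal one 0.9903 with the mutant distal mandible and 0.9898 with its own group. Their Hand2 levels were 6.90 and 7.16, far under those of any mandible array, and values of the Hox genes that rest on them are also given without them where they moved. Tgfbr1 averaged 12.41 in the mutants and 12.15 in controls over the 4 regions, a difference of 0.26 ± 0.04 (limma, adjusted p = 0.000146). Where its probe set lies relative to the floxed part is not given, so it does not check the labels. Xist, which is read from an inactive X chromosome, was between 11.15 and 13.39 in all mutant arrays, whereas in controls the arrays numbered 1 lay between 13.53 and 13.67 and those numbered 2 and 3 between 6.23 and 7.49. The Xist level is therefore not balanced between the genotypes, and Hoxd1 results are given below with the Xist level as a covariate.

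Of the 33 genes, 21 had a mean under 6.4, between 4.06 and 6.19, and 12 had a mean of 6.43 to 8.56. None of the 21 reached 6.4 in any group mean, and 6 of them exceeded the 40th percentile in at least 1 array. The 12 genes above the line were Hoxa5, Hoxa7, Hoxa9, Hoxb2, Hoxb3, Hoxc4, Hoxc6, Hoxc9, Hoxc13, Hoxd1, Hoxd8 and Hoxd9, and the same 12 passed the filter on low values. Hoxd1 exceeded the 40th percentile in 9 arrays. These were 3 of the mutant proximal mandible, 3 of the mutant proximal maxilla, 2 of the mutant distal maxilla and 1 of the control proximal maxilla. Its passing of the filter therefore rests mostly on mutant arrays and is no support for the genotype difference. Just above the line were Hoxc4 at 6.43, Hoxc13 at 6.45 and Hoxd1 at 6.47, and just under it Hoxb6 at 6.19, Hoxa3 at 6.07 and Hoxb4 at 6.04. The distance between the highest and lowest of the 8 group means was under 0.5 for 25 of the 33 genes and had a median of 0.28 over the 33. Among the 12 that passed the filter its median was 0.49, against 0.38 over all tested genes. It was 1 or more for 5 genes, at 4.43 for Hoxd1, 1.78 for Hoxa2, 1.47 for Hoxc13, 1.18 for Hoxd8 and 1.06 for Hoxd3.

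**Figure D1:**
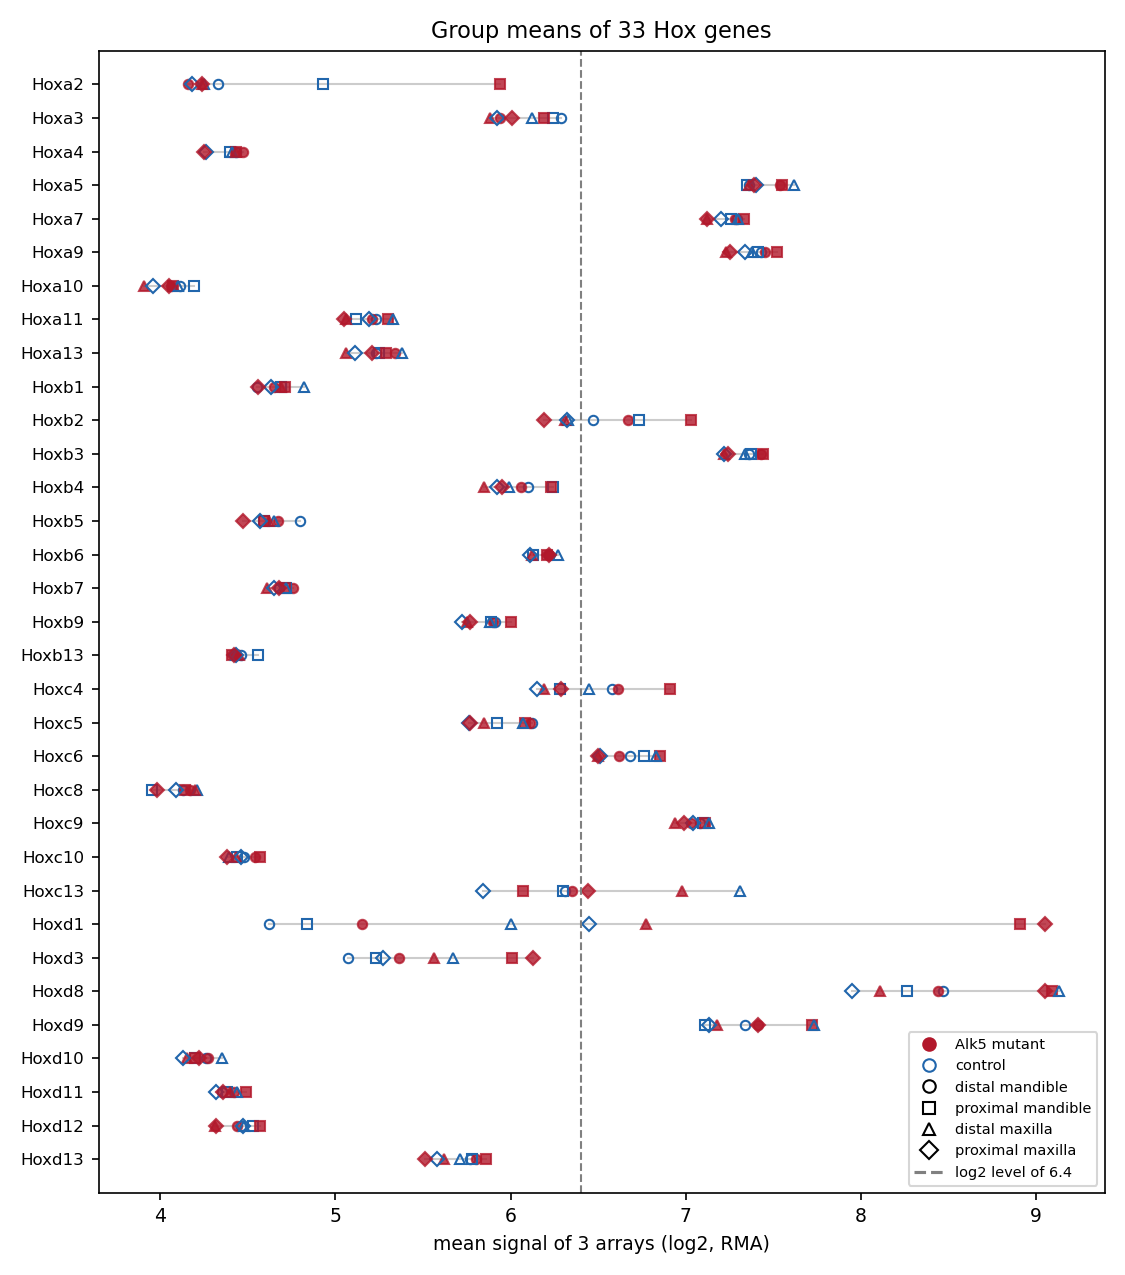
Mean signal (log2) of each of the 33 Hox genes in the 8 groups, with filled symbols for mutants, open symbols for controls, a symbol shape for each region and a dashed line at 6.4. For 25 genes the 8 means lie within 0.5 of each other, while the Hoxd1 means run between 4.62 and 9.05.

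Hoxd1 was the gene that departed. Its signal was high in the proximal ends of both mutant jaws and lower in the matching control arrays and in the distal ends. It is represented by a single probe set. Its upstream sequence is shown first, with that of Hoxd3, its neighbour on chromosome 2 and the Hox gene whose levels followed it most closely. The sequences are the 250 bases before each annotated start, from RefSeq on GRCm38.p6, both on the plus strand, at chr2:74762730-74762979 for Hoxd1 and chr2:74711743-74711992 for Hoxd3. They were searched on both strands for CAGAC, a motif named for SMAD proteins, TGACAG, named for MEIS proteins, and AGGTCA, named for retinoic acid receptors, and capitals mark a match.
Hoxd1: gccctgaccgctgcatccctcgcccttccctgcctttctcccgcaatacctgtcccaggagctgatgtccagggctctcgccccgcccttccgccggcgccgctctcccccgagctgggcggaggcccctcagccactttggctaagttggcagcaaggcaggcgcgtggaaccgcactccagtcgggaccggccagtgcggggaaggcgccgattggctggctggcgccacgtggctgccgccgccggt
Hoxd3: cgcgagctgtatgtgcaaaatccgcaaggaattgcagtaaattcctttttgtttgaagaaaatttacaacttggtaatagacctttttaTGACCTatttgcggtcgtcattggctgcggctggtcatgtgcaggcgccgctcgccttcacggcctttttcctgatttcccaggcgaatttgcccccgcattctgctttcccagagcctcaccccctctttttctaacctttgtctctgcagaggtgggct
The Hoxd1 window is 71.6% G and C and held none of the 3 motifs. The Hoxd3 window is 49.2% G and C and held 1 match, to AGGTCA on the reverse strand, at position -161 relative to the start. Among 32851 RefSeq windows of the same length, CAGAC was found in 42.2%, TGACAG in 15.9% and AGGTCA in 14.0%. A match or its absence in this window describes letters only and says nothing about binding.

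In the proximal mandible, Hoxd1 read 9.71, 8.49 and 8.53 in the mutant arrays, against 5.00, 4.72 and 4.80 in the control arrays. Every mutant array lay more than 3 log2 units above every control array, and all 3 controls were under the 6.4 line. The means were 8.91 ± 0.69 in mutants and 4.84 ± 0.14 in controls, a difference of 4.07 ± 0.67 or 16.8-fold in signal (limma, adjusted p = 0.000267). With controls at near-background signal, the ratio of signals need not be the ratio of transcripts. With Xist as a covariate the difference was 4.01 (adjusted p = 0.00111).

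In the proximal maxilla, Hoxd1 read 8.87, 8.31 and 9.96 in the mutant arrays, against 7.86, 6.35 and 5.15 in the control arrays. The mutant arrays all lay above the control arrays, but the controls were spread over a wide range and the highest of them was near the lowest mutant. The means were 9.05 ± 0.84 in mutants and 6.45 ± 1.36 in controls, a difference of 2.60 ± 0.67 or 6.05-fold in signal (limma, adjusted p = 0.0184). The call was lost without both mutant maxilla arrays numbered 3 (2.14, adjusted p = 0.0982), without the mutant proximal maxilla array 3 alone (2.14, adjusted p = 0.106) and without the control array 3 (1.94, adjusted p = 0.108). With Xist as a covariate the difference was 2.54 (adjusted p = 0.0395). The control with the highest Hoxd1, array 1, was also the control with high Xist. In the proximal mandible the control with high Xist was likewise the highest for Hoxd1, at 5.00 against 4.72 and 4.80. In the distal ends it was not, at 4.69 against 4.30 and 4.86 in the mandible and 5.47 against 6.10 and 6.43 in the maxilla. The part of sex in the result was not tested beyond that covariate.

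In the distal ends the genotypes overlapped. Hoxd1 read 6.21, 4.0 and 5.24 in the mutant distal mandible, against 4.69, 4.30 and 4.86 in the control distal mandible, a difference of 0.53 ± 0.67 (limma, adjusted p = 0.658) that was 0.00 without mutant array 1 and 1.10 without mutant array 2. None of these 6 arrays reached 6.4. In the distal maxilla it read 7.86, 5.23 and 7.22 in mutants, against 5.47, 6.10 and 6.43 in controls, a difference of 0.77 ± 0.67 (adjusted p = 0.516). It was 0.23 without mutant array 1, 1.54 without mutant array 2, 0.51 without control array 1 and 0.55 without both mutant maxilla arrays numbered 3, and none of these passed. There 2 mutant arrays lay above every control and the remaining mutant array below all of them, so the distal maxilla held the widest spread of any mutant group.

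**Figure D2:**
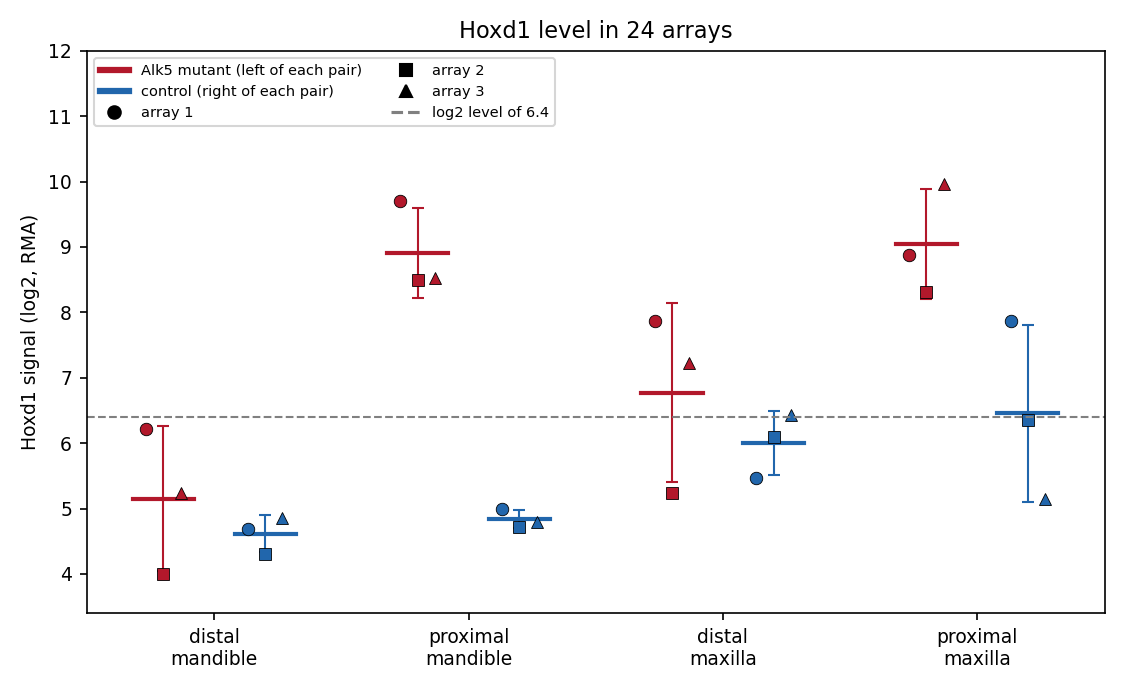
Hoxd1 signal (log2) in each of the 24 arrays by region, with mutants left of controls, bars for the mean, whiskers for the SD of 3 arrays and a dashed line at 6.4. The 6 mutant proximal arrays lie between 8.31 and 9.96 and are the 6 highest of the series.

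Over the 4 regions together, Hoxd1 averaged 7.47 in mutants and 5.48 in controls, a difference of 1.99 ± 0.34 (limma, adjusted p = 0.000112). Because the 4 regions of a number may come from the same embryo, the regions were also averaged within each genotype and number before the fit, and the adjusted p was then 0.0209. Without both mutant maxilla arrays numbered 3 the difference was 1.82 (adjusted p = 0.000435). The genotype difference was larger at the proximal than at the distal ends by 2.68 ± 0.67, with an adjusted p of 0.150 (unadjusted p = 0.000742), so this contrast did not pass the threshold. Same-numbered arrays deviated together in it, and it passed with a random block of genotype and number (adjusted p = 0.0433) but not with the replicate number as a block (adjusted p = 0.0542). The same contrast was rarely passed by any gene, with 0.0430% of tested genes called higher and 0.0717% called lower. The genotype difference in the mandible minus that in the maxilla was 0.62 ± 0.67 (adjusted p = 0.657), and 0.96 without both mutant maxilla arrays numbered 3 (adjusted p = 0.542).

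Within mutants, Hoxd1 was lower in the distal than in the proximal mandible, at 5.15 against 8.91, a difference of -3.76 ± 0.67 (limma, adjusted p = 0.00119), and the arrays of the 2 ends did not overlap. The mutant distal maxilla stood at 6.77 against 9.05 in the mutant proximal maxilla, a difference of -2.28 ± 0.67 without overlap (adjusted p = 0.116). Same-numbered arrays deviated together in that comparison, and a fit that blocks on the replicate number gave an adjusted p of 0.0479. Without both mutant maxilla arrays numbered 3 the difference was -2.05 (adjusted p = 0.418). In controls the ends differed little, by -0.22 ± 0.67 in the mandible (4.62 distal, 4.84 proximal, adjusted p = 0.950) and by -0.46 ± 0.67 in the maxilla (6.0 distal, 6.45 proximal, adjusted p = 0.742). Between the jaws of controls, the mandible was below the maxilla in every array at both ends, by -1.38 ± 0.67 distally (adjusted p = 0.178) and -1.62 ± 0.67 proximally (adjusted p = 0.0823), and neither passed the threshold. In mutants the mandible minus the maxilla was -1.62 ± 0.67 distally (adjusted p = 0.146) and -0.14 ± 0.67 proximally (adjusted p = 0.934).

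In order of group means, Hoxd1 stood at 9.05 in the mutant proximal maxilla, 8.91 in the mutant proximal mandible, 6.77 in the mutant distal maxilla, 6.45 in the control proximal maxilla, 6.0 in the control distal maxilla, 5.15 in the mutant distal mandible, 4.84 in the control proximal mandible and 4.62 in the control distal mandible. The first pair of groups overlapped and so did the last 6 from each to its neighbour, so the one gap in this order that exceeded the spread of the arrays lay between the mutant proximal mandible and the mutant distal maxilla. In whole-tissue RNA, more cells of a type and more RNA per cell cannot be told apart.

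The rest of the HoxD cluster was mixed. Hoxd3, which acts in the neck skeleton and is expressed in mesoderm and neural tube, had a mean of 5.54 and so lay near background and was not tested with the filter. Proximal mandible arrays read 6.49, 5.65 and 5.89 in mutants, against 5.28, 5.12 and 5.30 in controls. Proximal maxilla arrays read 5.72, 5.82 and 6.85 in mutants, against 5.27, 5.20 and 5.34 in controls. All 6 mutant proximal arrays lay above all 6 control proximal arrays, although only 2 of them exceeded 6.4. With no filter, over all 18193 genes, the difference was 0.78 ± 0.26 in the proximal mandible (limma, adjusted p = 0.0486) and 0.86 ± 0.26 in the proximal maxilla (adjusted p = 0.0490). These calls sat at the threshold. The unfiltered fit called 6.82% of all genes higher and 7.75% lower in the proximal mandible, and 3.81% higher and 3.34% lower in the proximal maxilla. Without the mutant proximal mandible array 1 the mandible difference was 0.54 (adjusted p = 0.230), without mutant array 3 it was 0.84 (adjusted p = 0.0677), and without the mutant proximal maxilla array 3 the maxilla difference was 0.50 (adjusted p = 0.311). Leaving out any of the 3 controls also lost each of these calls, with adjusted p between 0.0900 and 0.146 in the mandible and between 0.107 and 0.110 in the maxilla. Over the 4 regions the unfiltered difference was 0.45 (adjusted p = 0.0109), where 18.8% of all genes were higher and 12.2% lower, and it was 0.30 (adjusted p = 0.0181) without both mutant maxilla arrays numbered 3.

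Hoxd3 overlapped between genotypes in the distal maxilla, at 5.45, 5.15 and 6.07 in mutants against 5.43, 5.89 and 5.69 in controls. In the distal mandible mutants read 5.26, 5.11 and 5.70 and controls 5.03, 5.10 and 5.09, so that the groups just failed to overlap. Over the 24 arrays the correlation of Hoxd3 with Hoxd1 was 0.79, against 0.43 for Hoxd8, 0.40 for Hoxd9, 0.36 for Hoxa2 and -0.31 to 0.21 for the other Hox genes. These are descriptions over arrays that share groups, and the level in common includes the genotype.

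Hoxd8, which is expressed in trunk mesoderm and neural tube, lay above the 6.4 line in every array, between 7.01 and 10.05. Its proximal mandible values were 10.05, 8.88 and 8.33 in mutants, against 8.40, 8.02 and 8.35 in controls. Its proximal maxilla values were 8.61, 8.59 and 9.95 in mutants, against 7.01, 8.45 and 8.39 in controls, a difference of 1.10 ± 0.52 (limma, adjusted p = 0.180). It was 0.65 without both mutant maxilla arrays numbered 3 (adjusted p = 0.498) and 0.63 without control array 1 (adjusted p = 0.544). The maxilla groups were apart by a small gap and the mandible groups overlapped. In the distal maxilla the order turned, with 8.05, 7.04 and 9.22 in mutants against 8.75, 9.17 and 9.47 in controls, and in the distal mandible the means were nearly equal at 8.44 and 8.47. No Hoxd8 difference between genotypes passed the threshold with all arrays. A second Hoxd8 probe set gave 0.69 in both proximal regions and -0.80 in the distal maxilla, none of them past the threshold.

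Hoxd9, which helps pattern the limb and lower trunk, was the other Hox gene called in the proximal mandible. It read 8.22, 7.46 and 7.47 in mutants, against 7.09, 7.08 and 7.15 in controls, with no overlap. The difference was 0.61 ± 0.21 or 1.53-fold (limma, adjusted p = 0.0445). Mutant array 1 carried much of it, since without that array the difference was 0.36 (adjusted p = 0.237), and leaving out any of the 3 controls also ended the call (adjusted p between 0.0832 and 0.112). The call was also lost with no filter (adjusted p = 0.0539), with a random block (0.0511) and with only the arrays compared (0.0769). In the distal maxilla it read 7.08, 7.08 and 7.39 in mutants, against 7.34, 7.83 and 8.02 in controls, a difference of -0.55 ± 0.21 (adjusted p = 0.147). For the proximal maxilla the values were 7.15, 7.15 and 7.93 in mutants, against 7.06, 7.13 and 7.20 in controls, a difference that was 0.02 without both mutant maxilla arrays numbered 3. Mutant proximal maxilla array 3 was thus the highest there for Hoxd1, Hoxd3, Hoxd8 and Hoxd9, and mutant proximal mandible array 1 the highest of its region for the same genes.

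The posterior HoxD genes, Hoxd10, Hoxd11, Hoxd12 and Hoxd13, which pattern the limbs and the genital bud, lay under the line at means of 4.22, 4.40, 4.45 and 5.70. Their group means spanned 0.17 to 0.35. They are far from Hoxd1 in the cluster, which runs in the order Hoxd13 to Hoxd1 along the chromosome with Hoxd8, Hoxd9, Hoxd4 and Hoxd3 between. The neighbours outside the cluster moved little. Of 4 tested flanking genes, Mtx2, a mitochondrial import component, rose by 0.19 in both the proximal mandible (limma, adjusted p = 0.0288) and the proximal maxilla (adjusted p = 0.0447). Of all tested genes 9.56% were higher in the mandible and 5.75% in the maxilla. Without both mutant maxilla arrays numbered 3, 0 of the 4 were called in the proximal maxilla, beside 2.60% of all tested genes higher and 3.01% lower. The others were Evx2 (0.02 and 0.07), Lnpk (-0.11 and 0.04) and Atp5g3 (-0.03 and 0.00), and none of them passed.

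**Figure D3:**
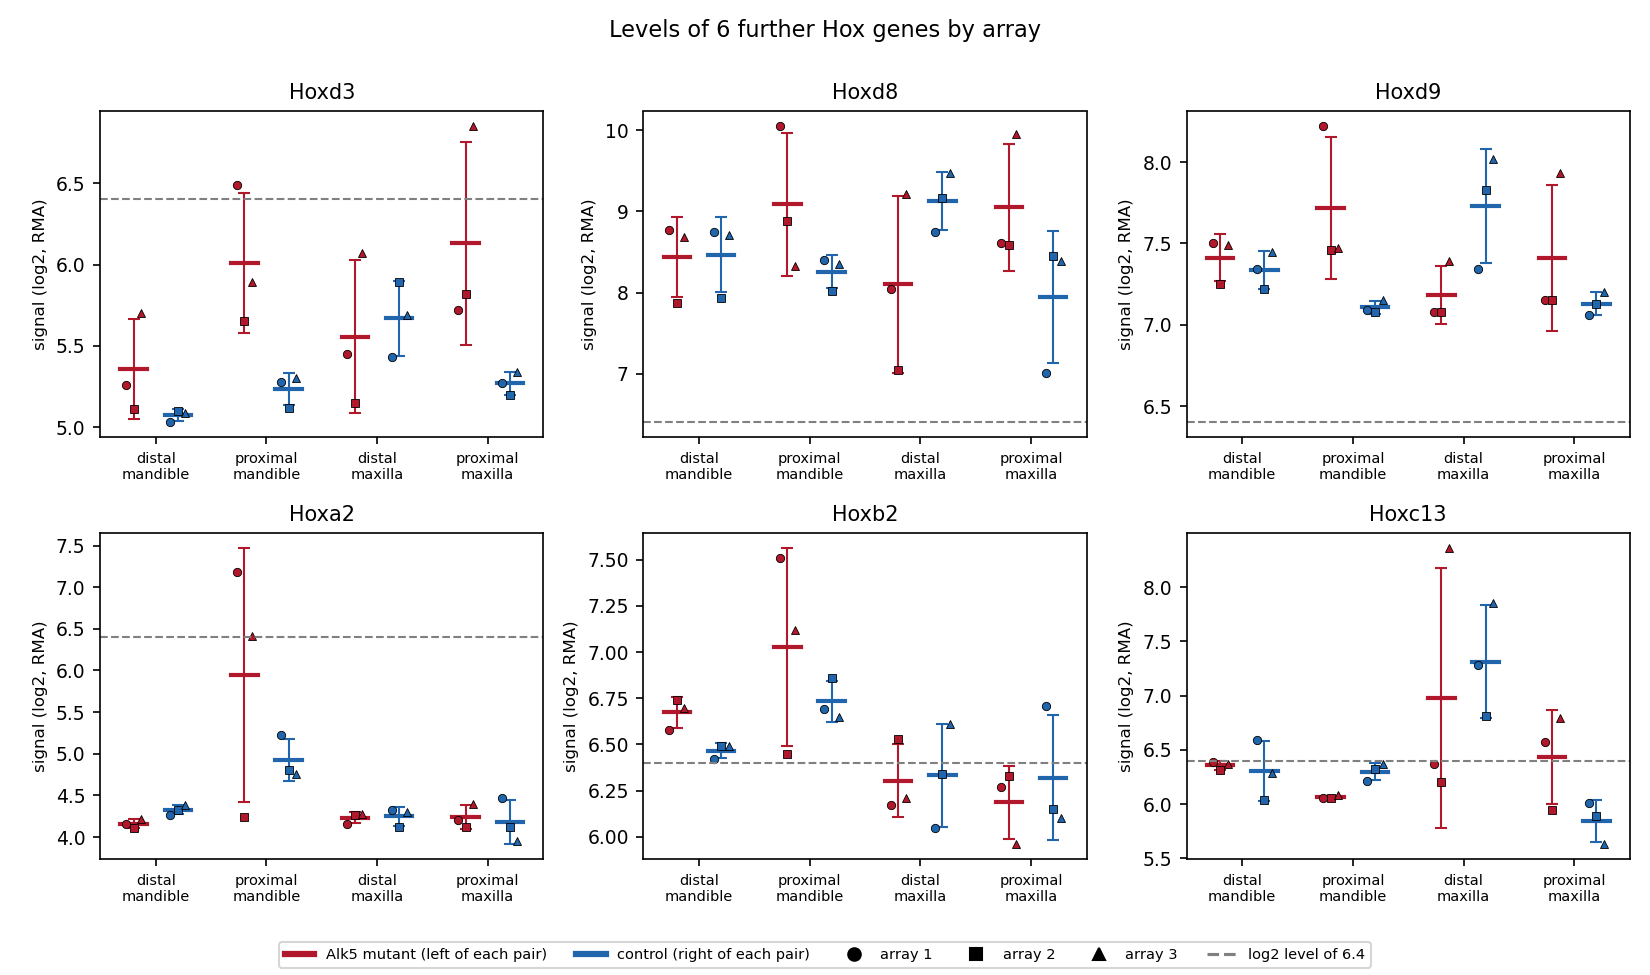
Signal (log2) of Hoxd3, Hoxd8, Hoxd9, Hoxa2, Hoxb2 and Hoxc13 in each of the 24 arrays, with mutants left of controls, bars for the mean, whiskers for the SD of 3 arrays, a dashed line at 6.4 and a separate scale in each panel. Single arrays stand out in several mutant groups, among them Hoxa2 at 7.18 in mutant proximal mandible array 1 and Hoxc13 at 8.36 in mutant distal maxilla array 3.

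Across all 12 tested Hox genes, 2 were called higher and 0 lower in the mutant proximal mandible, where 9.56% of all tested genes were called higher and 10.4% lower. The pair was Hoxd1 and Hoxd9. Without mutant proximal mandible array 2 there were 4, with Hoxb2 at 0.58 (adjusted p = 0.0429) and Hoxc4 at 0.88 (adjusted p = 0.0253) in addition to Hoxd1 and Hoxd9. The share of all tested genes called in that fit is not given, so the count of 4 is not set against the shares above. In the fit of all arrays the median difference of the 12 was 0.16, against 0.04 over all tested genes. In the proximal maxilla Hoxd1 alone was called, with 5.75% of tested genes higher and 4.79% lower, and the median of the 12 was 0.00 against 0.03. In the distal mandible 0 of 12 were called and 0 had an unadjusted p under 0.05, where 8.02% of tested genes were higher and 7.98% lower. In the distal maxilla 0 of 12 were called by limma and 1, Hoxd9, had an unadjusted p under 0.05, where 1.84% of tested genes were higher and 1.12% lower. There 11 of the 12 had a negative difference, with a median of -0.22 against 0.04. These signs rest on the same arrays and are not independent of each other. Control distal maxilla array 3 was the highest control there for each of the 12. Without it the differences were -0.86 for Hoxd8, -0.40 for Hoxd9 and -0.07 for Hoxc13, against -1.02, -0.55 and -0.34 with it. Without both mutant maxilla arrays numbered 3, the differences were -1.58 for Hoxd8 (adjusted p = 0.0456), -0.65 for Hoxd9 (adjusted p = 0.0457) and -1.03 for Hoxc13 (adjusted p = 0.0126), so that 3 genes were called lower. In that fit 4.47% of all tested genes were called higher and 3.51% lower in the distal maxilla. Over the mean of the 4 regions Hoxd1 alone was called, with 25.2% of tested genes higher and 15.3% lower. With 12 genes tested, counts of so few members cannot be set firmly against these shares. Hoxd1 stood out by the size of its difference.

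**Figure D4:**
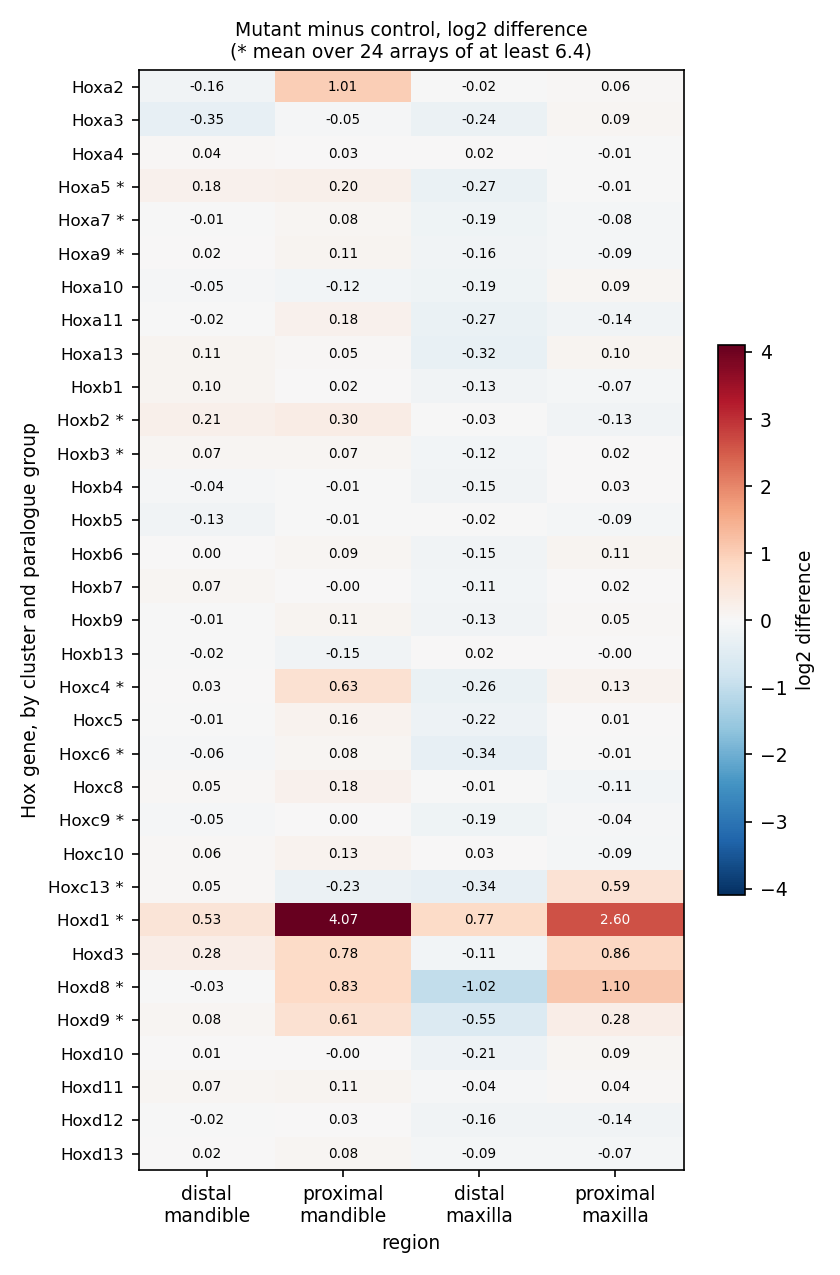
Mutant minus control difference (log2) for each of the 33 Hox genes in the 4 regions, as colour and printed value, from the fit without a filter on low values. Hoxd1 has the darkest cells, at 4.07 for the proximal mandible and 2.60 for the proximal maxilla, while the distal maxilla column is mostly pale blue.

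Hoxa2 is the Hox gene that specifies the second arch and the most anterior one expressed in crest. Its mean was 4.53, near background, and it was flat at 3.95 to 4.47 in 18 arrays outside the proximal mandible. In the proximal mandible it read 7.18, 4.24 and 6.41 in mutants, against 5.22, 4.81 and 4.76 in controls. Mutant arrays 1 and 3 were the highest of the series, mutant array 2 lay with the arrays of other regions, and the controls stood in between, slightly above every array outside the proximal mandible. The genotypes therefore overlapped there. Within mutants, with no filter, the distal mandible differed from the proximal mandible by -1.78 ± 0.41, at 4.16 against 5.94 (limma, adjusted p = 0.0113), where 3.66% of all genes were higher and 2.86% lower. The mutant proximal mandible was higher than the mutant proximal maxilla by 1.70, at 5.94 against 4.24 (adjusted p = 0.0224), where 1.04% of all genes were higher and 3.08% lower. The first call was lost without mutant proximal mandible array 1 (-1.16, adjusted p = 0.0686), without array 3 (-1.55, adjusted p = 0.0777) or without mutant distal mandible array 2 (-1.75, adjusted p = 0.0523). The second was lost without array 1 (1.08, adjusted p = 0.105), without array 3 (1.47, adjusted p = 0.0900), and without mutant proximal maxilla array 1 (1.68, adjusted p = 0.0958) or array 2 (1.64, adjusted p = 0.0886).

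Hoxb2, its paralogue, which acts in the hindbrain and the facial nerve, showed the same arrays high. Its values were 7.51, 6.45 and 7.12 in the mutant proximal mandible, against 6.69, 6.86 and 6.65 in the control, and in the proximal maxilla 6.27, 6.33 and 5.96 in mutants, against 6.71, 6.15 and 6.10 in controls. The genotypes overlapped in both regions. In the distal mandible it read 6.58, 6.74 and 6.70 in mutants, against 6.42, 6.49 and 6.49 in controls, apart but with a difference of only 0.21 that did not pass. The mutant proximal mandible exceeded the mutant proximal maxilla by 0.84 ± 0.21 without overlap (limma, adjusted p = 0.0222), the one Hox gene called in that comparison, where 1.24% of tested genes were higher and 4.33% lower. That call was lost when any of the mutant proximal arrays other than mandible array 2 was left out, with adjusted p between 0.0527 and 0.107, and without both mutant maxilla arrays numbered 3 (0.73, adjusted p = 0.0515). Hoxb1 and Hoxb4 stayed under the line at means of 4.66 and 6.04. With no filter, Hoxb4 was called higher in the control proximal mandible than in the control proximal maxilla, at 6.24 against 5.92 (0.33, limma, adjusted p = 0.0295). Hoxa3, a gene of the third arch and its glands, had a mean of 6.07 and group means between 5.88 and 6.29.

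Hoxc13, known for hair and nail keratin control, was highest in the distal maxilla. It read 6.37, 6.20 and 8.36 in mutants there, against 7.28, 6.81 and 7.85 in controls, so that mutant array 3 was above all controls and the other mutants below them. The proximal maxilla read 6.57, 5.95 and 6.79 in mutants, against 6.01, 5.89 and 5.63 in controls. In the control maxilla the distal end was higher than the proximal by 1.47 ± 0.38, at 7.31 against 5.84 without overlap (limma, adjusted p = 0.0158). It was the 1 Hox gene of 12 called there, beside 4.90% of tested genes higher and 5.99% lower. The call was lost without control distal maxilla array 3 (1.20, adjusted p = 0.116) and without control proximal maxilla array 3 (1.36, adjusted p = 0.0516). Hoxd9 showed the same direction without passing, at 7.34, 7.83 and 8.02 in the control distal maxilla against 7.06, 7.13 and 7.20 in the control proximal maxilla (0.60 ± 0.21, adjusted p = 0.0711). It did pass with the replicate block (limma, adjusted p = 0.0482), the random block (0.0344) and without both mutant maxilla arrays numbered 3 (0.0238). Hoxc13 was also lower in the control distal mandible than in the control distal maxilla, by -1.01, which was not called. That difference passed with the replicate block (limma, adjusted p = 0.0417), the random block (0.0354), only the arrays compared (0.0271) and without both those mutant arrays (0.00136).

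In the remaining comparisons few Hox genes were called by limma. Between the ends of the control mandible 0 of 12 were called and 0 had an unadjusted p under 0.05, beside 2.91% of tested genes higher and 2.54% lower. Between control mandible and maxilla 0 of 12 were called at the distal end, beside 8.37% higher and 9.46% lower, and 0 of 12 at the proximal end, beside 11.4% higher and 15.2% lower, with 1 at an unadjusted p under 0.05 in each. Between the ends of the mutant mandible Hoxd1 alone was called, as lower, beside 5.01% of tested genes higher and 4.02% lower. Between the ends of the mutant maxilla 0 of 12 were called and 1, Hoxd1, had an unadjusted p under 0.05, beside 0.811% higher and 0.430% lower. Between mutant mandible and maxilla distally 0 of 12 were called and 2 had an unadjusted p under 0.05, beside 3.01% higher and 6.78% lower. For the difference of the genotype effect between jaws, 0 of 12 were called and 2 had an unadjusted p under 0.05, beside 2.45% of tested genes higher and 4.31% lower. For that between ends, 0 of 12 were called, beside 0.0430% of tested genes higher and 0.0717% lower. There 3 had an unadjusted p under 0.05, namely Hoxd1, Hoxd8 and Hoxd9. The shares given are of adjusted calls. The share of all tested genes with an unadjusted p under 0.05 is not given for any comparison, so counts at that threshold are not read as results about the Hox genes.

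The other genes above the line were flat. Hoxa5, Hoxa7 and Hoxa9 had means of 7.45, 7.24 and 7.38, with group means spanning 0.27, 0.22 and 0.29. Without control distal maxilla array 1, Hoxa5 was called lower in the control distal mandible than in the control distal maxilla (-0.42, limma, adjusted p = 0.0381). With all arrays these groups stood at 7.36 and 7.62 and it was not called. Hoxb3 had a mean of 7.33 and spanned 0.22, and Hoxc9 a mean of 7.05 and spanned 0.19. Hoxc6 had a mean of 6.65 and spanned 0.35. Of these, Hoxa5, Hoxa7, Hoxa9, Hoxc6 and Hoxc9 act in the trunk, in lung, rib and limb patterning. For 4 of the genes named here another probe set of the same gene lay low, at 5.12 for Hoxa5, 4.80 for Hoxa9, 4.24 for Hoxb3 and 4.84 for Hoxc6. Without detection calls, such a flat signal cannot be told apart from background, and a mean under 6.4 does not show that a transcript was missing.

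The genes that work with Hox proteins were measured as lists. Of the 8 tested TALE homeodomain cofactors, which bind DNA together with Hox proteins, 4 rose in the mutant proximal mandible and 0 fell, where 9.56% of all tested genes were higher and 10.4% lower, with a list median of 0.31 against 0.04 over all tested genes. They were Meis2 (1.07), Meis1 (0.98), Pbx2 (0.57) and Pbx3 (0.33). In the proximal maxilla 3 rose, namely Meis2 (0.57), Pbx2 (0.49) and Meis3 (0.37), and 0 fell, beside 5.75% of tested genes higher and 4.79% lower. Without both mutant maxilla arrays numbered 3 just 1 rose there, beside 2.60% of tested genes higher. Over the mean of the 4 regions 4 rose, beside 25.2% of tested genes higher, with Pbx2 at 0.46 ± 0.03 (limma, adjusted p = 4.76e-09) and Meis2 at 0.67 ± 0.08 (adjusted p = 1.94e-06). Meis1, Meis2, Pbx2 and Pbx3 were also measured at mean levels of 8.78 or more in the proximal groups, above the 6.4 line.

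Retinoic acid is the signal best known for switching on anterior Hox genes. Of 15 tested genes of its synthesis, breakdown, binding and receptors, 9 rose and 3 fell in the mean of the 4 regions, where 25.2% of all tested genes were higher and 15.3% lower, so that the share that fell was near that of all genes. Those that rose included the binding proteins Crabp1 (0.66 ± 0.05, limma, adjusted p = 3.69e-08) and Crabp2 (0.54 ± 0.07, adjusted p = 1.01e-05), the receptors Rara (0.28), Rarb (0.47) and Rarg (0.16), and the synthetic enzymes Aldh1a2 (0.38) and Rdh10 (0.22). Those that fell were the synthetic enzymes Aldh1a1 (-1.56) and Aldh1a3 (-0.99), and Dhrs3 (-0.21), a retinaldehyde reductase. In the proximal mandible 4 rose and 1 fell, beside 9.56% of tested genes higher and 10.4% lower, and in the proximal maxilla 2 rose and 2 fell, beside 5.75% and 4.79%. Crabp1 averaged 12.52 in the mutant proximal mandible and 11.56 in the control proximal mandible, while Aldh1a3 averaged 8.30 and 9.98 in the same groups. Rarb, itself induced by retinoic acid, did not pass in either proximal region, at 0.64 (adjusted p = 0.154) in the mandible and 0.35 (adjusted p = 0.495) in the maxilla.

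Of 18 tested genes of the Polycomb and Trithorax groups, which keep Hox clusters silent or active, 7 rose and 0 fell in the mutant proximal mandible, while 3 rose and 0 fell in the mutant proximal maxilla (2 and 0 without both mutant maxilla arrays numbered 3). The shares of all tested genes were 9.56% higher and 10.4% lower in the mandible, and 5.75% higher and 4.79% lower in the maxilla. Without both those arrays the maxilla shares were 2.60% higher and 3.01% lower. In the mean of the 4 regions 10 rose and 0 fell, beside 25.2% of tested genes higher and 15.3% lower, among them Cbx2 (0.48 ± 0.05, limma, adjusted p = 5.86e-07), Jarid2 (0.32 ± 0.04, adjusted p = 5.17e-06), Bmi1 (0.28), and Ezh2 (0.19), the Polycomb methyltransferase. None of 3 tested ParaHox and cluster-end homeobox genes and none of 3 tested hindbrain segmentation factors passed limma's threshold in the proximal regions or the mean.

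Markers of other cell types also differed between genotypes in the proximal groups, where 9.56% of all tested genes were higher and 10.4% lower in the mandible, and 5.75% higher and 4.79% lower in the maxilla. Hoxd1 is known from sensory neurons, and of 11 tested neuron markers 1 rose in the mutant proximal mandible, Isl1 at 8.45 against 7.06 (1.39, limma, adjusted p = 0.0175), and 0 rose in the proximal maxilla. The mean level of the list was 7.49 to 7.72 in the mutant proximal mandible against 7.0 to 7.51 in the control, and 8.76 to 10.53 in the mutant proximal maxilla against 9.47 to 10.86 in the control. Mutant proximal maxilla array 3, the highest for Hoxd1, was the lowest of its group for the neuron list. The control proximal maxilla arrays, at 10.86, 10.01 and 9.47 for the list, had the same order as for Hoxd1. The mutant proximal mandible arrays, at 7.72, 7.49 and 7.64, also had the order of their Hoxd1 levels. Those of the control proximal mandible, at 7.31, 7.0 and 7.51, did not. Of 4 tested glial markers, Sox10 (0.58) and Erbb3 (0.52) rose in the proximal mandible, while in the proximal maxilla 0 rose. Of 5 tested genes of the maxilla and palate 3 rose in each proximal region, Osr2 (1.38 and 1.04), Pou3f3 (1.28 and 1.21) and Shox2 (1.01 and 1.55). Epithelial markers rose in 2 of 6 in the proximal mandible and 3 of 6 in the proximal maxilla. Markers of crest mesenchyme rose in 2 of 6 in the mandible, with a mean level of 11.51 to 11.60 in mutants against 11.11 to 11.28 in controls, and in 3 of 6 in the maxilla, at 11.21 to 11.74 against 10.56 to 11.02. Macrophage markers fell in 3 of 5 in the mandible, at 7.89 to 8.42 in mutants against 8.80 to 8.86 in controls, and 0 of 5 were called in the maxilla. Of 8 muscle markers 1 fell in the mandible and 0 were called in the maxilla, where the mean level was 10.50 in mutant array 3, the highest for Hoxd1, and 8.89 and 8.69 in mutant arrays 1 and 2, against 8.19 to 10.24 in controls. Cartilage markers fell in 1 of 6 and 5 of 6, and bone markers in 3 of 4 and 2 of 4. Without both mutant maxilla arrays numbered 3 the proximal maxilla counts were 1 of 5 for the maxilla and palate, 1 of 6 for epithelium, 3 of 6 for cartilage, and still 3 of 6 for crest mesenchyme and 2 of 4 for bone. In that fit fewer of all tested genes were called as well, with 2.60% higher and 3.01% lower. The mean level of the 4 bone markers was 9.49 to 11.59 in the mutant proximal mandible against 12.46 to 12.69 in the control, and 7.70 to 9.07 in the mutant proximal maxilla against 9.81 to 11.25 in the control, lower in every mutant array than in every control array of its region. The part of these cell types in the Hoxd1 result was not tested.

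The genes whose levels ran closest to Hoxd1 over the 24 arrays were Efemp1, an extracellular matrix protein of the fibulin family (r = 0.91), Dnm3, a dynamin (0.87), Pnma2 (0.87), Scaper (0.86) and Tbx15, a T-box factor of limb and head mesenchyme (0.86). Efemp1 averaged 11.81 in the mutant proximal mandible and 10.34 in the control, and 11.84 in the mutant proximal maxilla and 10.61 in the control. Tbx15 averaged 10.63 in the mutant proximal mandible and 9.50 in the control, and 10.61 in the mutant proximal maxilla and 9.89 in the control. For both genes the mutant distal mandible lay lower, at 9.97 and 8.72. The likeness is a description over arrays of the same 8 groups and carries no test.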

How the data were processed

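RNA of 24 samples was labelled and hybridised to single-colour mouse arrays, per the labels' protocols. The deposited values are on a log2 scale, made by the authors with RMA per the submitters' processing notes, with no version and no detection calls. The base of the logarithm is not stated and was read from the range of 3.29 to 14.86. Of 45101 probe sets, 34945 named 1 gene symbol in the array annotation, 932 several and 9160 none. Of those with 1 symbol, 34741 matched a RefSeq table by identifier. Each of 18193 genes was represented by its brightest probe set.

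A linear model with 1 mean per group gave 15 comparisons (limma 3.58.1, R 4.3.3, eBayes with trend, two-sided, Benjamini-Hochberg over 13942 genes). The script was tested on simulated data. Probe sets naming 2 genes were fitted with all probe sets. Tables were made in pandas 2.3.3 and numpy 2.4.6 under Python 3.11.15, and plots with matplotlib 3.10.9. Members, lists and tests were chosen with earlier results of these data known. Values were given for Hoxd1, for each member at or above 6.4 and for members called in any fit. The 5 genes most like Hoxd1 were taken by correlation among tested genes, and list members were named among those with the largest moderated statistics.

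Whether same-numbered arrays of different groups pair was read from the correlation of their deviations from the group means. It was over 0.1 for every number in the mean of the 4 regions (0.16, 0.13 and 0.36), both differences of the genotype effect, the ends of the control mandible and the 4 comparisons within mutants, and not elsewhere. Alternatives were quantile normalization, array weights, no filter, a filter at the 60th percentile, the mean of all probe sets, the replicate number as a block, a random block of genotype and number (correlation 0.231), eBayes without trend, only the arrays compared, regions averaged first, and leaving out each array. Leaving out both mutant maxilla arrays numbered 3 and adding Xist as a covariate were chosen after the data were seen, as was leaving out arrays for Hoxd3, Hoxa2, Hoxd8, Hoxd9, Hoxc13, the lists and the shared Hoxd3 and Hoxd4 probe set.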

Additional observations from a re-analysis of the deposited data

Results flagged for a closer look

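Hoxc4, a gene of neck and forelimb levels, had mutant and control arrays apart in opposite directions in 2 regions. The proximal mandible read 7.88, 6.4 and 6.45 in mutants, against 6.37, 6.29 and 6.18 in controls, a difference of 0.63 ± 0.25 (limma, adjusted p = 0.0855). In the distal maxilla it read 6.15, 6.17 and 6.26 in mutants, against 6.34, 6.33 and 6.67 in controls, a difference of -0.26. Neither passed the threshold, and the difference between these 2 regions was not tested. Mutant proximal mandible array 1, at 7.88, is the highest Hoxc4 array of the series and is also the highest for Hoxd8, Hoxd9, Hoxa2 and Hoxb2.

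A probe set that names both Hoxd4 and Hoxd3 was outside the 33 genes. The proximal mandible read 7.30, 6.93 and 6.95 in mutants, against 6.62, 6.18 and 6.52 in controls, a difference of 0.62 ± 0.16 in the fit of all probe sets (limma, adjusted p = 0.0180). The call was lost without mutant array 1 (0.50, adjusted p = 0.0996) and without control array 2 (0.49, adjusted p = 0.118). In the proximal maxilla the same probe set gave 0.35 (adjusted p = 0.282), and a second probe set of both genes gave 0.59 in the proximal mandible (adjusted p = 0.186) and 0.54 in the proximal maxilla (adjusted p = 0.283). All 4 of these comparisons had mutant arrays above control arrays without overlap. They are not independent, since both probe sets name the same genes and were read on the same arrays. The share of all probe sets separated in this way is not given, so the count of 4 is not read as support for a difference. Which of the 2 genes the probes read cannot be told apart.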

How the results depend on the processing

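Over the alternatives that keep every array, the Hoxd1 difference in the proximal mandible and its mean over the 4 regions kept direction and call, with adjusted p of at most 0.00152 and 0.0209. Leaving out single arrays moved them between 3.67 and 4.28 (highest adjusted p 0.00251) and between 1.83 and 2.18 (highest 0.000305). In the proximal maxilla the Hoxd1 call was lost with array weights (2.11, adjusted p = 0.0587), with only the arrays compared (2.60, adjusted p = 0.119) and without both mutant maxilla arrays numbered 3 (2.14, adjusted p = 0.0982), and single arrays left out gave 1.94 to 3.3. The Hoxd1 distal minus proximal genotype effect of -2.68 passed with a random block (adjusted p = 0.0433), not with the replicate block (adjusted p = 0.0542). The mutant maxilla ends (-2.28) passed with the replicate block and the random block. In controls, mandible minus maxilla passed distally with only the arrays compared (-1.38, adjusted p = 0.00611), and proximally with array weights (-1.75), the replicate block (-1.62, adjusted p = 0.0411) and the random block (-1.62), with single arrays left out giving -2.27 to -0.91. In mutants, mandible minus maxilla passed distally with array weights (-2.09), with -2.39 to -1.05 over single arrays left out. The proximal value turned positive with array weights (0.12) and without both mutant maxilla arrays numbered 3 (0.32), with -0.54 to 0.32 over single arrays. The Hoxd1 difference between control maxilla ends ran from -1.11 to 0.25 over single arrays. None of these proximal mutant values or control end values passed.

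The number of Hox genes called moved in these cases. For mutant minus control it was 1 in the proximal mandible with the 60th percentile filter, the random block or only the arrays compared (1 to 4 over single arrays left out), 3 in the distal maxilla without both mutant maxilla arrays numbered 3 (0 to 1), and in the proximal maxilla 0 with array weights, only the arrays compared or without both those arrays, and 2 with no filter (0 to 1). With no filter the count of 2 in the proximal mandible held Hoxd1 and Hoxd3, not Hoxd9. It was 2 in the mean of the regions with no filter, 1 for the jaw difference of the genotype effect without both arrays, and 1 for the end difference with the random block. For the control maxilla ends it was 0 with the 60th percentile filter and 2 with the replicate block, the random block or without both arrays (0 to 2). For control mandible minus maxilla it was 1 distally with array weights, either block or without both arrays, and 2 with only the arrays compared (0 to 1), and 1 proximally with array weights, no filter, either block or only the arrays compared (0 to 1). For the mutant ends it was 2 in the mandible with no filter (1 to 2) and 1 in the maxilla with either block. For mutant mandible minus maxilla it was 1 distally with array weights (0 to 1), and proximally 2 with no filter and 0 with the 60th percentile filter, only the arrays compared or without both arrays (0 to 1). The 60th percentile filter left 2 Hox genes to test, and without a filter all 33 were tested. The share of all tested genes called moved with the setting too. Without both mutant maxilla arrays numbered 3, 4.47% were higher and 3.51% lower in the distal maxilla, and 2.60% and 3.01% in the proximal maxilla. For most other settings that share is not given, so the counts are not read against it. The cause of the other changes was not tested. The replicate block changed no other Hoxd1 call.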
